A study of Caenorhabditis elegans with 6 samples.

Results

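Mitochondrial ribosomal protein genes were taken as all genes whose WormBase symbol starts with mrpl- (large subunit) or mrps- (small subunit), which gave 70 of the 46904 genes counted, 41 for the large and 29 for the small subunit. The mRNA of whole L1-stage *C. elegans* was measured by poly(A) RNA-seq in 3 strains with 2 libraries each: the N2 wild-type, the *csb-1* mutant line RB1801 with the allele ok2335, and the *xpc-1* mutant line TG2226 with the allele tm3886. All worms were untreated and fed *E. coli* on nematode growth media. CSB-1 acts in transcription-coupled repair and XPC-1 in global repair of UV damage, so the strains compare each repair pathway's loss with the wild-type in larvae that were not irradiated. The labels do not say whether the libraries of a strain came from separate cultures, so each p-value measures only the spread between these libraries, which may be technical.

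The mitochondrial ribosome translates the few mRNAs of the mitochondrial genome, which encode core subunits of the respiratory chain. Its proteins are all encoded in the nucleus, made by the cytosolic ribosome and imported, and the 2 subunits are assembled on mitochondrial rRNAs. In *C. elegans* this ribosome is best known from lifespan studies, in which RNA interference against *mrps-5* and other members lengthened life and induced the mitochondrial unfolded protein response. Reads on mitochondrial DNA had been removed before counting, so the rRNAs and mRNAs this ribosome works with were not measured here.

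The libraries held between 41643033 and 48371365 counts on genes, and the smallest count of any member in any library was 449. The *csb-1* libraries stood apart from each other: markers of cuticle synthesis and molt summed to 9650 CPM, the counts scaled to the library total, in *csb-1* replicate 1 and 28.7 in replicate 2, against 3155 to 5695 in the other libraries. Germ line markers summed to 162 and 50.2 CPM in *csb-1* replicates 1 and 2, to 54.3 and 46.6 in the wild-type pair and to 95.6 and 94.8 in the *xpc-1* pair. The *csb-1* gene had 18.9 and 5.79 CPM in its own mutant and 22.1 and 23.8 in wild-type, and the *xpc-1* gene had 19.5 and 19.0 CPM in its own mutant and 46.7 and 41.7 in wild-type. Counts were summed over each whole gene, so they do not isolate the deleted parts. In whole larvae, fewer cells of a type and less RNA per cell cannot be told apart.

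All 70 members were expressed in every library, and in TPM their levels stayed within a narrow band. TPM, in which counts are divided by exon length and each library is scaled to the same total, had a member median of 59.7 and 55.6 in wild-type replicates 1 and 2, 56.4 and 54.8 in the *csb-1* pair and 57.8 and 56.4 in the *xpc-1* pair. In each library all 70 members lay above the median TPM of the protein-coding genes with counts there, and the median member stood between percentile 78.7 and percentile 89.9 of them. The SD of log2 TPM over the members ran from 0.45 in *csb-1* replicate 2 to 0.54 in *csb-1* replicate 1. Both subunits had similar levels: the median TPM of the large and small subunit genes was 58.9 and 63.7 in wild-type replicate 1, 55.4 and 56.7 in wild-type replicate 2, 56.2 and 56.7 in *csb-1* replicate 1, 53.5 and 60.4 in *csb-1* replicate 2, 55.1 and 61.1 in *xpc-1* replicate 1, and 55.6 and 57.8 in *xpc-1* replicate 2. The small subunit median was the higher of the pair in all 6 libraries, by less than the spread among genes.

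**Figure D1:**
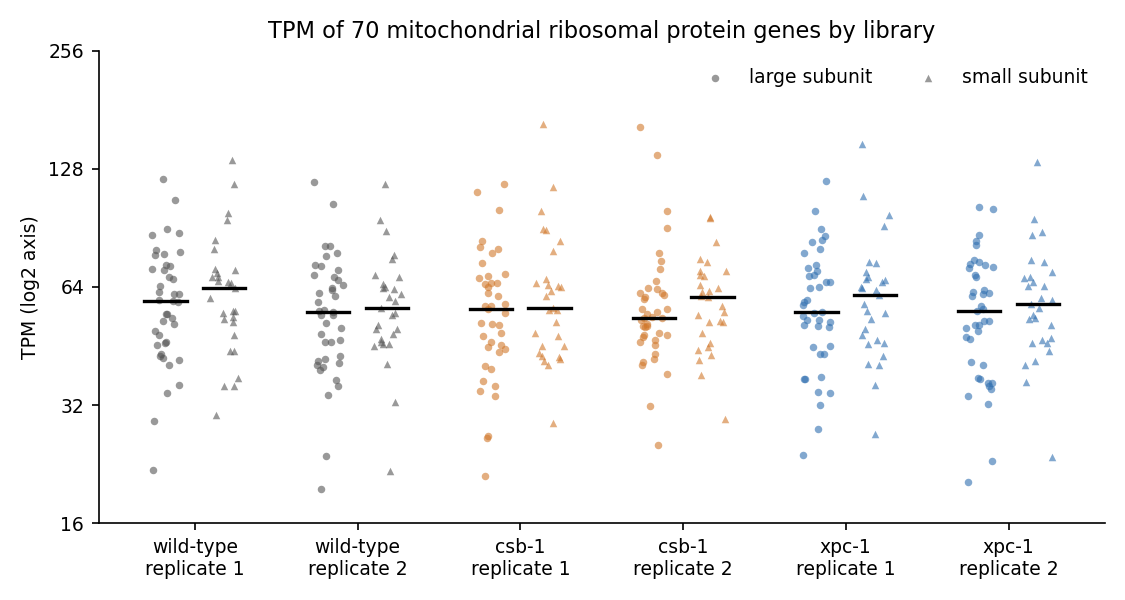
TPM of the 70 mitochondrial ribosomal protein genes (log2 axis) in each of the 6 libraries, with large subunit genes as circles, small subunit genes as triangles and the median of each subunit as a black line. The medians lie between 53.5 and 63.7 TPM in every library, and *mrps-11* is the highest gene in 4 of the 6 libraries.

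The highest wild-type levels belonged to members of both subunits. *mrps-11*, a small subunit protein with a bacterial counterpart in uS11, had 135 and 117 TPM in wild-type, 167 and 75.3 in the *csb-1* pair and 148 and 133 in the *xpc-1* pair. *mrpl-11*, of the factor-binding stalk base, had 120.5 and 118.8 TPM in wild-type, 100.3 and 139 in the *csb-1* pair and 119.2 and 102 in the *xpc-1* pair. *mrpl-12*, the counterpart of the bacterial stalk protein L7/L12 that contacts elongation factors, had 107 and 104 TPM in wild-type, 65.0 and 164 in the *csb-1* pair and 86.1 and 81.8 in the *xpc-1* pair. In these genes the wild-type and *xpc-1* replicates lay close together and the *csb-1* replicates far apart, with *mrps-11* highest in *csb-1* replicate 1 and *mrpl-12* highest in *csb-1* replicate 2. *mrps-14* had 117 and 88.6 TPM in wild-type, 115 and 96.4 in the *csb-1* pair and 109 and 86.6 in the *xpc-1* pair. *mrps-5* had 94.7 and 94.6 TPM in wild-type, 99.7 and 95.7 in the *csb-1* pair and 97.6 and 95.3 in the *xpc-1* pair. Its highest and lowest libraries differed by a factor of 1.05, the smallest such ratio of TPM among the 70 members.

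The lowest member was *mrpl-54* in all 6 libraries, with 21.8 and 19.5 TPM in wild-type, 21.1 and 25.3 in the *csb-1* pair and 23.9 and 20.4 in the *xpc-1* pair. Next came *mrps-31*, with 30.2 and 21.8 TPM in wild-type, 28.8 and 29.5 in the *csb-1* pair and 26.9 and 23.6 in the *xpc-1* pair. *mrpl-45*, whose mammalian counterpart lies at the exit tunnel and anchors the ribosome to the inner membrane, had 29.2 and 23.8 TPM in wild-type, 26.3 and 31.9 in the *csb-1* pair and 27.8 and 23.0 in the *xpc-1* pair. For these 3 genes the range of each mutant overlapped that of wild-type. *mrps-28* had 35.7 and 32.6 TPM in wild-type, 41.9 and 46.0 in the *csb-1* pair and 36.1 and 36.7 in the *xpc-1* pair. *mrpl-2*, the counterpart of the bacterial protein uL2 near the peptidyl transferase centre, had 36.1 and 34.0 TPM in wild-type, 39.5 and 38.4 in the *csb-1* pair and 37.2 and 35.1 in the *xpc-1* pair. In TPM, both *csb-1* libraries lay above both wild-type libraries in *mrps-28* and *mrpl-2*, whereas *xpc-1* did so only in *mrps-28*. In CPM, *csb-1* replicate 1 lay between the wild-type libraries in both genes, as did both *xpc-1* libraries in *mrps-28*. The share of all genes separated in this way was not computed. Of the other members known from lifespan work, *mrpl-1* had 73.0 and 58.5 TPM in wild-type, 67.4 and 52.8 in the *csb-1* pair and 72.9 and 62.3 in the *xpc-1* pair. *mrpl-37* had 41.6 and 54.3 TPM in wild-type, 51.6 and 48.3 in the *csb-1* pair and 54.8 and 57.3 in the *xpc-1* pair. The wild-type replicates of *mrpl-1* and of *mrpl-37* differed by more than the means of wild-type and either mutant did.

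As a share of each library the members together took under 0.5% in every one. They held 0.285% and 0.259% of the counts on genes in wild-type, 0.235% and 0.333% in the *csb-1* pair and 0.259% and 0.250% in the *xpc-1* pair. Their median CPM was 34.6 and 31.9 in wild-type, 28.2 and 39.7 in the *csb-1* pair and 32.2 and 29.9 in the *xpc-1* pair. Of the TPM they held 0.437% and 0.405% in wild-type, 0.423% and 0.418% in the *csb-1* pair and 0.425% and 0.409% in the *xpc-1* pair, so that on this scale both *csb-1* libraries lay between the wild-type libraries. The 78 genes of the cytosolic ribosome held 23.7% and 23.2% of TPM in wild-type, 11.8% and 41.6% in the *csb-1* pair and 18.1% and 18.4% in the *xpc-1* pair. The 56 nuclear genes of the respiratory chain held 1.40% and 1.45% in wild-type, 1.50% and 1.84% in the *csb-1* pair and 1.44% and 1.51% in the *xpc-1* pair. The *csb-1* replicates thus differed most in the share of the cytosolic ribosome and least in that of the mitochondrial ribosome among these 3 groups.

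**Figure D2:**
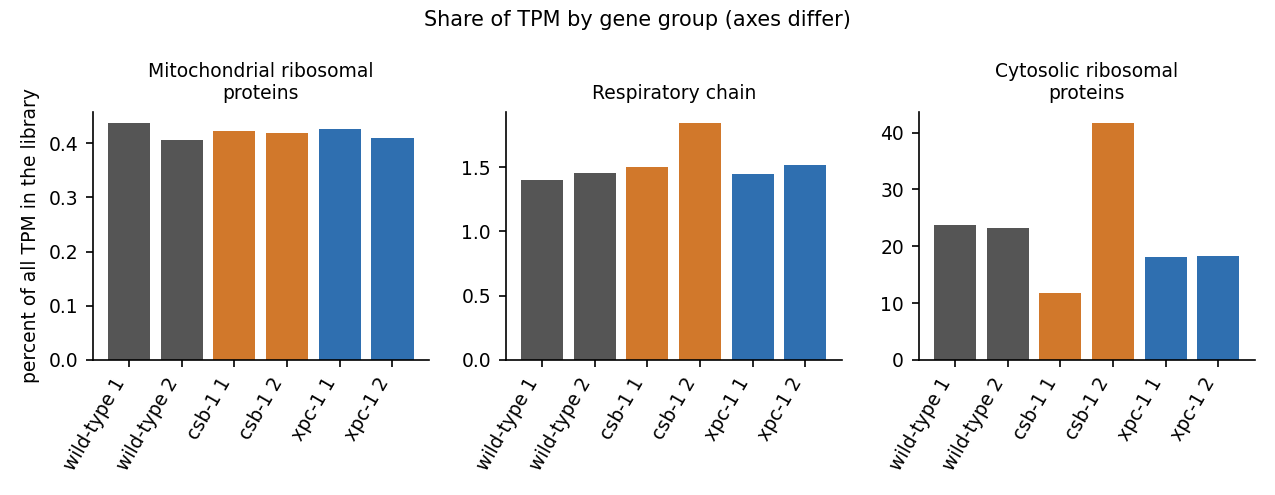
Percent of all TPM in each library held by the mitochondrial ribosomal protein genes, the respiratory chain genes and the cytosolic ribosomal protein genes, 1 bar per library and a separate axis from 0 for each group. The first group stays between 0.405% and 0.437%, while the cytosolic group runs from 11.8% in *csb-1* replicate 1 to 41.6% in *csb-1* replicate 2.

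The ratio of the highest to the lowest TPM over the 6 libraries shows how steady each gene was on this scale. Its median was 1.32 over the 70 members, and 68 of them (97.1%) stayed under a 2-fold range. The exceptions were *mrpl-12* with 2.52 and *mrps-11* with 2.22. The share under a 2-fold range was 18.0% of the 16541 genes tested that had counts in every library, 25.8% of the 6491 such genes whose mean CPM lay in the range of the members, 49 of 56 respiratory chain genes and 2 of 77 cytosolic ribosomal protein genes. The narrow range depended on the scale. With library size alone 65 of 70 members stayed under a 2-fold range, against 24.7% of all such genes and 37.9% of those in the CPM range of the members. In TMM-scaled CPM only 14 of 70 did, against 29.2% and 45.4%, and the median ratio over the members was 2.23. The share of members under a 2-fold range was thus above that of all genes in TPM and by library size, and below it with TMM. TPM depends on what else fills a library, so a steady TPM is a steady share and not a steady number of molecules.

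The wild-type replicates, and likewise the *xpc-1* replicates, gave nearly the same levels for the members. With counts scaled by TMM, edgeR's trimmed mean method, the log2 ratio of replicate 2 over replicate 1 had a median of -0.08 and an SD of 0.20 over the members in wild-type, and a median of -0.02 and an SD of 0.17 in *xpc-1*. Over the 18421 genes that reached 10 counts in 2 or more libraries, the SD was 0.32 in both strains. These genes include ones with far fewer counts than any member, so the SDs are not matched for level. The order of the members by TPM was kept, with a Spearman rho across the 70 genes of 0.89 between the wild-type libraries and 0.92 between the *xpc-1* libraries. These are correlations across genes that share their libraries, and genes are not independent replicates.

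Between the *csb-1* libraries the members moved together. The TMM-scaled ratio of replicate 2 over replicate 1 had a median of 1.09 on the log2 scale, 69 of 70 members were higher in replicate 2, and 84.3% of them lay within 0.5 of that median. Their SD was 0.37, against 1.87 over all genes, of which 31.3% lay within 0.5 of their own median of -0.07. All genes here include ones with far fewer counts than any member, whose smallest count was 449. This contrast is therefore not matched for level. The median was 1.14 for the large and 1.09 for the small subunit. The cytosolic ribosomal proteins had a median of 2.95 and an SD of 0.54, and the respiratory chain a median of 1.26 and an SD of 0.81. The height of this common shift depended on the scaling, since TMM gave *csb-1* replicate 2 a factor of 0.72 and the other 5 libraries factors of 1.04 to 1.08. Without TMM factors the median of the members was 0.51, with 66 of 70 higher, and that of all genes was -0.45. In TPM the median of the members was -0.01, with 34 of 70 higher, and that of all genes was -0.91. Relative to the median of all genes, the members were higher in replicate 2 by 1.16, 0.96 and 0.90 on these 3 scales, whereas the sign of their own median depended on the scale.

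**Figure D3:**
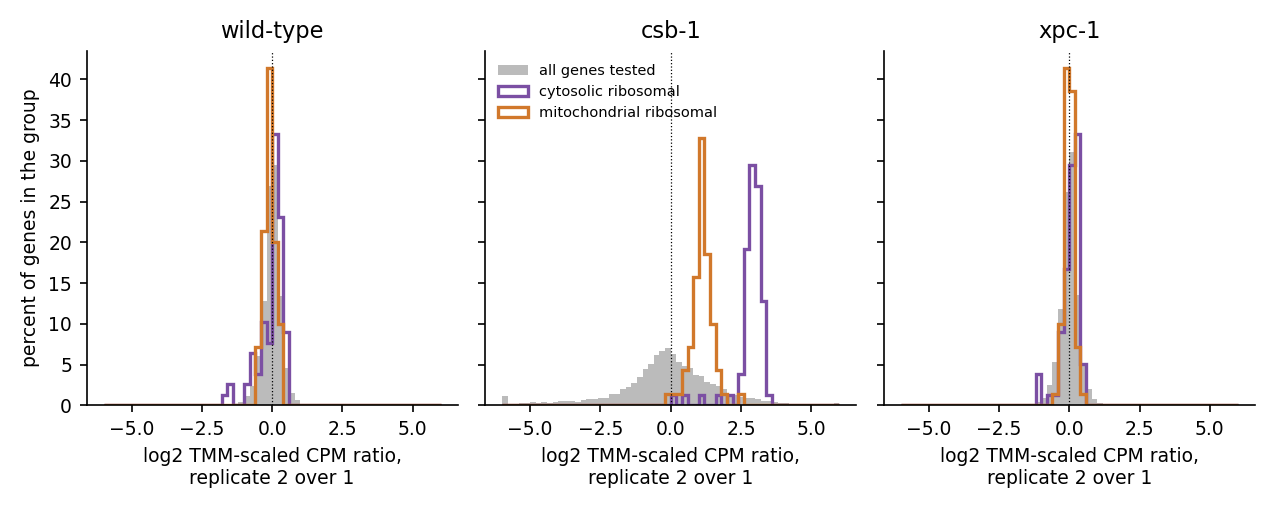
Distribution of the log2 ratio of TMM-scaled CPM, replicate 2 over replicate 1, in each strain, as percent of genes in bins, for all genes tested (grey), the cytosolic (purple) and the mitochondrial (orange) ribosomal protein genes, with ratios past the axis range placed in the outermost bins. All groups lie near 0 in wild-type and *xpc-1*, and in *csb-1* the mitochondrial group forms a narrow peak with a median of 1.09 and the cytosolic group another with a median of 2.95.

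A few members left the common shift between the *csb-1* libraries. The largest TMM-scaled log2 ratios of replicate 2 over replicate 1 were 2.42 for *mrpl-12*, 1.95 for *mrpl-39*, 1.68 for *mrpl-36* and 1.66 for *mrpl-35*, all of the large subunit. *mrpl-39* had 26.7 and 48.9 TPM in *csb-1*, 34.4 and 40.5 in the wild-type pair and 34.4 and 33.8 in the *xpc-1* pair. *mrpl-36*, the shortest member with 309 exon bases, had 65.5 and 100.1 TPM in *csb-1*, 78.7 and 68.8 in the wild-type pair and 70.3 and 68.8 in the *xpc-1* pair. *mrpl-35* had 35.7 and 53.8 TPM in *csb-1*, 46.0 and 46.4 in the wild-type pair and 34.6 and 41.2 in the *xpc-1* pair. In each of these genes *csb-1* replicate 2 was the highest library. The smallest ratios were -0.04 for *mrps-11*, 0.17 for *mrpl-40*, 0.30 for *mrpl-50* and 0.51 for *mrps-27*. *mrpl-50* had 112 and 63.6 TPM in *csb-1*, 86.7 and 81.5 in the wild-type pair and 89.9 and 83.7 in the *xpc-1* pair. *mrps-27*, whose mammalian counterpart is a pentatricopeptide repeat protein of the small subunit, had 79.2 and 52.2 TPM in *csb-1*, 65.7 and 55.0 in the wild-type pair and 67.8 and 67.3 in the *xpc-1* pair. In TPM, *csb-1* replicate 1 was the highest library in these genes, whereas in TMM-scaled CPM replicate 2 was the higher of the *csb-1* pair in *mrpl-40*, *mrpl-50* and *mrps-27*.

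In *xpc-1* against wild-type, 1 member rose, 3 fell and 66 did not pass the test (edgeR's quasi-likelihood test on the 4 libraries, Benjamini-Hochberg adjusted p under 0.05 over 17924 genes). These 4 of 70 are 5.71% of the members, against 37.1% of all genes tested, 20.0% called higher and 17.1% lower. Among the 6518 genes tested in the CPM range of the members, 50.7% were called. The log2 fold changes of the members ran from -0.42 to 0.59 with a median of -0.09 and an SD of 0.16, and over all genes the median was -0.02 and the SD 0.84. Over the genes in the CPM range of the members the median was 0.07 and the SD 0.57. Without wild-type replicate 2 the median of the members was -0.15. All 4 called members encode large subunit proteins, and 0 of 29 small subunit genes were called, with a median of -0.05 against -0.12 for the large subunit. Whether the subunits differ was not tested. Of the 70 members 17 had a log2 fold change above 0. The standard errors of the members ran from 0.08 to 0.21 with a median of 0.12. Changes of the size of the members' median thus lay within the error of a single gene, which is not the error of that median.

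*mrpl-40* (WBGene00018793, WBcel235 chromosome III from 87559 to 89243, plus strand), a large subunit protein of the mitochondrial ribosome without a bacterial counterpart, was the member that rose. It had 62.1 and 63.8 TPM in wild-type, against 99.7 and 101.0 in *xpc-1*. Its log2 fold change was 0.59 ± 0.10 (SE, adjusted p 0.00186 by edgeR), and with each of the 4 libraries left out in turn the call was kept with adjusted p between 0.00646 and 0.0220. The *csb-1* libraries had 117 and 61.2 TPM. In CPM, the unit of the marker sums, *mrpl-40* had 32.1 in each wild-type library, 51.7 and 38.7 in the *csb-1* pair and 47.9 and 49.0 in the *xpc-1* pair. The summed germ line markers were also highest in *csb-1* replicate 1, followed by the *xpc-1* libraries, but *csb-1* replicate 2 lay between the wild-type libraries. This order depended on the scale, since in TMM-scaled CPM *mrpl-40* was highest in *csb-1* replicate 2, at 53.8 against 47.7 in replicate 1. Cuticle and molt markers summed to 3335 and 3155 CPM in wild-type, 9650 and 28.7 in the *csb-1* pair and 5695 and 5622 in the *xpc-1* pair. In *xpc-1*, 8 of 12 cuticle and molt markers and 4 of 4 germ line markers were called higher, the 2 body wall muscle markers and the pharynx marker were called lower, and none of these markers was at 0 in any wild-type or *xpc-1* library. The lowest cuticle and molt marker had a log2 fold change of -1.24 and was not called. Of 2 neuron markers 1 was higher and 1 lower, and of 2 epidermis markers 1 was higher. Of 2 intestine and 6 adult yolk markers 0 were called. The part of the markers in the change of *mrpl-40* was not tested. No other annotated gene overlaps *mrpl-40*.

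*mrpl-12* (WBGene00012361, chromosome III from 10707761 to 10708518, plus strand) fell by 0.41 ± 0.09 on the log2 scale (SE, adjusted p 0.00891 by edgeR), from 53.9 and 51.5 CPM in wild-type to 40.6 and 38.8 in *xpc-1*. It shares 35 exon bases with *W09D10.5* on the opposite strand, and strand was not used in counting, so reads there cannot be told apart. *mrpl-46* (WBGene00021935, chromosome IV from 800818 to 804547, plus strand), another large subunit protein of mitochondrial ribosomes, had 40.4 and 40.8 TPM in wild-type, against 32.0 and 32.2 in *xpc-1*, and fell by 0.42 ± 0.11 (SE, adjusted p 0.0138 by edgeR). *mrpl-22* (WBGene00012645, chromosome III from 10615466 to 10617862, plus strand), whose bacterial counterpart lines the exit tunnel, had 77.6 and 72.9 TPM in wild-type, against 65.9 and 62.9 in *xpc-1*, and fell by 0.30 ± 0.10 (SE, adjusted p 0.0358 by edgeR). In the *csb-1* pair *mrpl-46* had 33.8 and 40.5 TPM, and *mrpl-22* had 60.6 and 70.9. In all 3 genes that fell, both *xpc-1* libraries lay below both wild-type libraries. The genes were called on these same libraries, so this adds no further support. These falls were less firm than the rise of *mrpl-40*: when each library was left out in turn, the adjusted p of edgeR ran from 0.0381 to 0.0574 for *mrpl-12*, from 0.0402 to 0.0731 for *mrpl-46* and from 0.0703 to 0.154 for *mrpl-22*. The call of *mrpl-12* was lost without *xpc-1* replicate 2, that of *mrpl-46* without wild-type replicate 2 or either *xpc-1* library, and that of *mrpl-22* without any of the 4.

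The number of calls rested on which libraries shared an estimate of the spread. When all 6 libraries were fitted together, the biological coefficient of variation was 0.62 instead of 0.14, and edgeR called 0 of 70 members and 0 of 18421 genes, with 1 member and 267 genes at an unadjusted p under 0.05. DESeq2 on the 4 libraries called 1 member higher and 3 lower, while 36.4% of all genes were called. With upper quartile factors, which lowered the median of all genes to -0.10, 1 member was higher and 9 were lower, while 37.7% of all genes were called. Without *xpc-1* replicate 1, and likewise without *xpc-1* replicate 2, 2 members were called, while 28.1% and 28.0% of all genes were called.

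**Figure D4:**
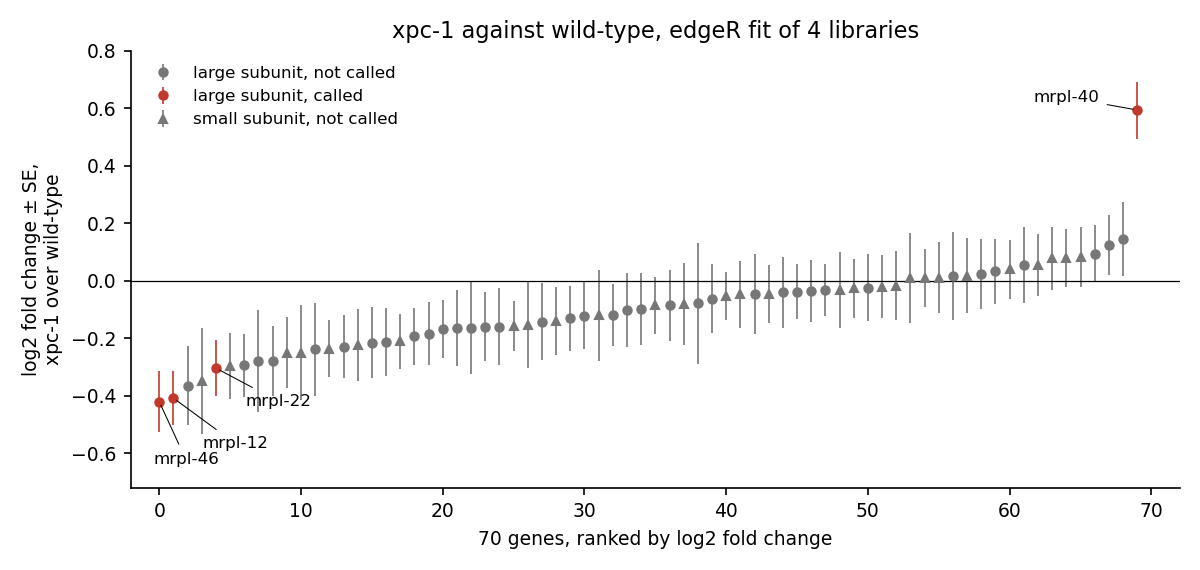
Log2 fold change of *xpc-1* over wild-type for the 70 members, ranked, with the SE derived from the edgeR test on 4 libraries as bars, large subunit genes as circles, small subunit genes as triangles and called genes in red. Most members lie between -0.3 and 0.15, and *mrpl-40* stands alone at 0.59.

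Most other genes of mitochondrial gene expression did not pass the test in *xpc-1*. Of 11 translation and gene expression factors, 1 was higher and 2 were lower, with a median log2 fold change of -0.22: *polg-1*, the mitochondrial DNA polymerase, rose by 0.37 ± 0.12 (SE, adjusted p 0.0335 by edgeR), *mma-1*, the counterpart of the mammalian mRNA-stabilising factor LRPPRC, fell by 0.33 ± 0.09 (SE, adjusted p 0.0171), and *tufm-1*, the mitochondrial elongation factor Tu, fell by 0.30 ± 0.09 (SE, adjusted p 0.0257). Of 10 mitochondrial aminoacyl-tRNA synthetases only *fars-2*, for phenylalanine, passed the test, lower by a log2 fold change of -0.36 ± 0.11 (SE, adjusted p 0.0264 by edgeR), and the list had a median of -0.05. Of 10 genes of the mitochondrial unfolded protein response 0 were higher and 3 lower. These were the chaperones *hsp-6* (-0.34 ± 0.09, SE, adjusted p 0.0183 by edgeR) and *hsp-60* (-0.43 ± 0.13, SE, adjusted p 0.0288), and *spg-7* (-0.30 ± 0.09, SE, adjusted p 0.0247), a protease of the inner membrane. With each library left out in turn the value of *hsp-60* ran from -0.61 to -0.28, the latter without wild-type replicate 2. The median of that list was -0.12. The respiratory chain had 3 of 56 genes higher, *nduf-2.2*, *sdha-2* and *ucr-2.3*, 0 lower and a median of -0.02. The cytosolic ribosome had 0 of 77 genes higher and 56 lower, with a median of -0.44. Each of the 7 calls named with a fold change was lost in at least 2 of the 4 fits that left out 1 library, and all 7 were lost in the fit of 6 libraries. The share of all genes called, 37.1%, is the background of every list.

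In *csb-1* against wild-type, edgeR called 0 of 70 members and 0 of 17730 genes (a share of 0%), with 0 members and 507 genes at an unadjusted p under 0.05, and DESeq2 called 0 members and 69 genes, a share of 0.389%. The median log2 fold change of the members was 0.42 and 69 of 70 were above 0, with a median of 0.15 over all genes. With library size alone as the scale, these values were 0.08, 52 of 70 and -0.09. The largest values were 0.80 ± 0.54 (SE) for *mrps-28*, 0.75 ± 0.88 for *mrpl-12* and 0.74 ± 0.28 for *mrpl-40*, and the smallest were -0.01 ± 0.42 for *mrpl-48*, 0.12 ± 0.37 for *mrpl-23* and 0.14 ± 0.38 for *mrpl-9*. None of these 6 passed the test. In TPM, *mrpl-48* had 67.9 and 78.1 in wild-type and 61.9 and 50.8 in *csb-1*, *mrpl-23* had 77.4 and 66.8 in wild-type and 73.8 and 51.6 in *csb-1*, and *mrpl-9* had 88.0 and 77.0 in wild-type and 81.1 and 61.9 in *csb-1*.

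The result for *csb-1* was decided by which of its libraries was kept. Without *csb-1* replicate 1, edgeR called 67 of 70 members, all higher, with a median of 0.86, while 53.9% of all genes were called. Without *csb-1* replicate 2 it called 19 members, 1 higher and 18 lower, with a median of -0.23, while 55.9% of all genes were called. Of the 18 members called in both of these fits, 17 were higher in the one and lower in the other. The remaining gene was *mrpl-40*, chosen here after its values were seen, which was higher in both, with log2 fold changes of 0.82 and 0.67. In CPM *mrpl-40* was also higher in both *csb-1* libraries than in wild-type. In TPM *csb-1* replicate 2 had 61.2, below the wild-type libraries at 62.1 and 63.8. In a fit that leaves out a *csb-1* library, the other is assumed to vary as the wild-type libraries do. The direction for the members also depended on the scale. Relative to the wild-type mean, their share in *csb-1* replicate 2 was 1.80 with TMM factors, 1.23 by counts and 0.99 in TPM. In *csb-1* replicate 1 it was 0.85, 0.87 and 1.00. The cuticle and molt markers of the 2 libraries differed over the same split, as given above, and their part in these changes was not tested.

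In *xpc-1* against *csb-1*, edgeR called 0 of 70 members and 0 of 17395 genes (a share of 0%), with 0 members and 234 genes at an unadjusted p under 0.05, and DESeq2 called 0 members and 24 genes, a share of 0.138%. The members had a median log2 fold change of -0.57 and 0 of 70 lay above 0, with a median of -0.03 over all genes. With library size alone these values were -0.17, 15 of 70 and 0.19. The lowest values were -1.20 ± 0.90 (SE) for *mrpl-12*, -0.90 ± 0.70 for *mrpl-36* and -0.89 ± 0.53 for *mrpl-41*, and those nearest 0 were -0.10 ± 0.27 for *mrps-11*, -0.13 ± 0.38 for *mrpl-23* and -0.15 ± 0.43 for *mrpl-48*. *mrpl-41* had 83.9 and 90.4 TPM in *csb-1*, against 66.0 and 72.6 in *xpc-1*. Without *csb-1* replicate 1, 68 members were called, all lower, while 63.3% of all genes were called, and without *csb-1* replicate 2 only *mrpl-12* was called, higher at 0.52, while 17.7% of all genes were called. The member median in *csb-1* replicate 2 was 39.7 CPM, above 32.2 and 29.9 in *xpc-1*. In TPM it was 54.8, below 57.8 and 56.4 in *xpc-1*. The comparisons share libraries, so their values are given side by side and not as repeats of each other.

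**Figure D5:**
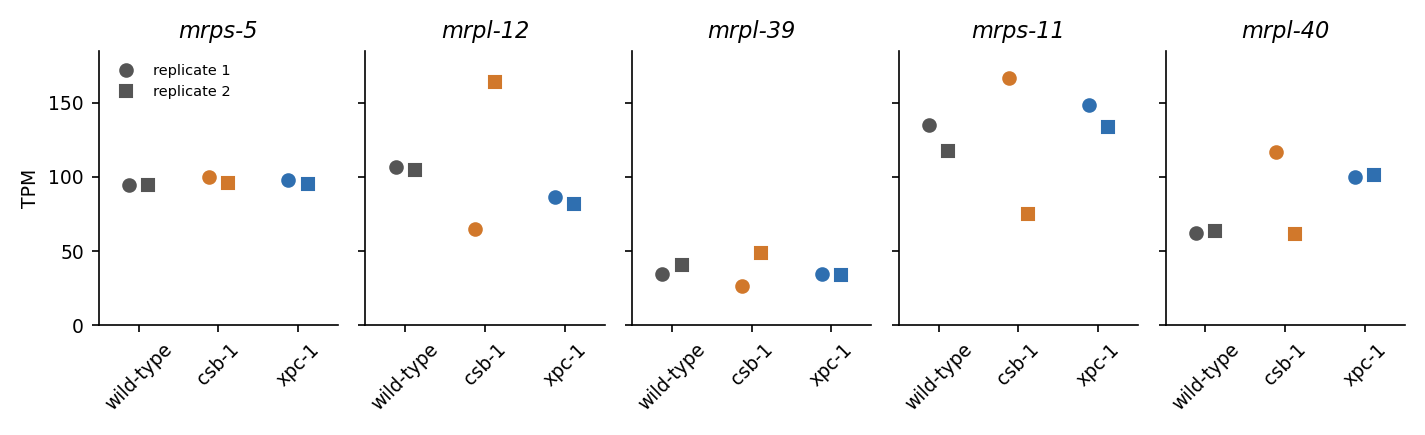
TPM in each library of *mrps-5*, *mrpl-12*, *mrpl-39*, *mrps-11* and *mrpl-40*, by strain, with replicate 1 as circles and replicate 2 as squares. *mrps-5* stays between 94.6 and 99.7 TPM, *mrpl-12* and *mrpl-39* are highest in *csb-1* replicate 2, and *mrps-11* and *mrpl-40* are highest in *csb-1* replicate 1.

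The members also shared features of position that the rule did not use. Of the 70 genes 22 (31.4%) lay on chromosome III, which holds 13.2% of the 19901 protein-coding genes, and 0 lay on chromosome X, which holds 13.6%. A protein-coding gene on the same strand ended less than 500 bases upstream of 27 members (38.6%), against 17.3% of all protein-coding genes. In *C. elegans* such spacing is typical of operons, in which adjacent genes are transcribed together, but operon annotations were not used here. The exons of the members had a median length of 755.5 bases, from 309 to 1969, against 1107 for protein-coding genes. In all, 20 members overlapped another annotated gene, 15 of them a protein-coding gene on the opposite strand. Some members with the largest or smallest ratios between the *csb-1* libraries share exon bases with a gene on the opposite strand. These are *mrps-11* (26 with *inx-11*), *mrpl-39* (20 with *Y32G9B.1*), *mrpl-35* (48 with *hmit-1.3*) and *mrpl-12* (35 with *W09D10.5*). The part of these reads was not tested.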

How the data were processed

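The authors used STAR for alignment, retained proper pairs of high mapping quality, removed mitochondrial reads and counted the rest on genes. The deposited values are raw counts per gene, per the file headers from featureCounts 2.0.4 with the Ensembl annotation of WBcel235, whereas the methods name WormBase WS295. Each mate was counted and strand was ignored, so counts are not independent molecules. Exon lengths deposited beside the counts served for TPM.

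Members were matched by symbol, and gene types and positions came from Ensembl release 115 of WBcel235. Genes reaching 10 counts in 2 or more libraries of a fit were tested with edgeR 4.0.16 (R 4.3.3), TMM factors and Benjamini-Hochberg adjustment, 2 strains at a time. The study states no such test. The edgeR test gives no SE, so each SE is the absolute log2 fold change divided by the square root of the test's F statistic. Log2 ratios used a pseudocount of 0.5 CPM. Only the 4-library edgeR fit of *xpc-1* against wild-type was tested on simulated counts, and the fits with *csb-1* were not. DESeq2 1.42.0, other scalings, filters, halved counts, a replicate block and leaving out each library were tried.

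Members and lists were chosen with earlier results of these data known. Values in every library were given for the 5 highest and 5 lowest members in wild-type TPM and the 4 largest and 4 smallest ratios between the *csb-1* libraries. The same held for *mrps-5*, *mrpl-1*, *mrpl-2* and *mrpl-37*. Of the members called in a comparison (3 each way where 0 were called), some had values for part of the strains only. *gfm-2*, *cars-2*, *wars-2* and *mars-2* of the lists were not matched. Depth was 41643033 to 48371365 counts per library, and no replicate pair agreed within counting error.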

Additional observations from a re-analysis of the deposited data

How the results depend on the processing

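In *xpc-1* against wild-type the number of members called was 4 and became 10 with upper quartile factors (1 higher, 9 lower), 13 with the replicate block (49.4% of all genes called, with a biological coefficient of variation of 0.088 against 0.14) and 0 with all 6 libraries in 1 fit, where 0 genes were called. It ran from 2 to 5 with each library left out, and the genes called from 4481 to 4904 against 6653. The members' median ran from -0.15 to -0.062 with each library left out and was -0.17 with upper quartile factors, which moved the median of all genes from -0.02 to -0.10. Each of the 11 named genes of this comparison kept its sign under every alternative. The replicate numbers were not taken to pair the libraries, since the labels do not say that they do and each comparison holds 2 pairs. The correlation of the replicate differences over all genes was 0.13 in *xpc-1* against wild-type, -9.2e-05 in *csb-1* against wild-type and 0.02 in *xpc-1* against *csb-1*. Over the 70 members it was 0.61, 0.06 and -0.06, a description across genes that share their libraries. The replicate block changed no other count of members. With a library left out, *polg-1*, *fars-2* and *spg-7* passed in 0 of 4 fits, *mma-1*, *tufm-1* and *hsp-6* in 1 and *hsp-60* in 2. In *csb-1* against wild-type, leaving out 1 library gave 0 to 67 members and 0 to 9734 genes called, with medians of the members from -0.23 to 0.86, and DESeq2 called 69 genes. In *xpc-1* against *csb-1* the same gave 0 to 68 members and 0 to 10691 genes, with medians from -0.98 to 0.17, and DESeq2 called 24 genes. With library size alone *mrpl-23* (-0.18) and *mrpl-9* (-0.17) turned negative in *csb-1* against wild-type, and *mrps-11* (0.16), *mrpl-23* (0.20) and *mrpl-48* (0.20) positive in *xpc-1* against *csb-1*. With DESeq2 *mrpl-48* in *csb-1* against wild-type was 0.046. With a library left out, the log2 fold change in *csb-1* against wild-type ran from -0.93 to 1.50 for *mrpl-12*, -0.47 to 0.34 for *mrpl-48*, -0.20 to 0.38 for *mrpl-23* and -0.25 to 0.45 for *mrpl-9*, and in *xpc-1* against *csb-1* from -1.93 to 0.52 for *mrpl-12*, -1.49 to 0.24 for *mrpl-36*, -0.38 to 0.22 for *mrpl-23* and -0.49 to 0.35 for *mrpl-48*, each with the ends set by the *csb-1* libraries. The cause of these changes was not tested.

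Relative to the wild-type mean, the members' share was 0.87 in *csb-1* replicate 1 and 1.23 in replicate 2 by counts, 1.80 in replicate 2 with TMM factors, and 1.00 and 0.99 in TPM, a scale chosen after seeing the data, as was the CPM range of the members. The number of members under a 2-fold range over the 6 libraries was 68 in TPM, 65 with library size alone and 14 with TMM. The median log2 ratio between the *csb-1* libraries was 1.09 with TMM, 0.51 with library size alone and -0.0056 in TPM. With 2 libraries per strain, changes of the size of the members' median in *xpc-1* could not be told from the spread between libraries.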
